A study of Ovis aries with 15 samples.

Results

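The genes described here were the insulin-like growth factors (IGFs), their 2 receptors and their binding proteins, measured by RNA-seq in the mammary gland of sheep. The 10 members were listed by symbol: the ligands IGF1 and IGF2, the receptors IGF1R and IGF2R, and the binding proteins IGFBP2, IGFBP3, IGFBP4, IGFBP5, IGFBP6 and IGFBP7. Of the 24691 features in the deposited table, 8 carried a listed symbol. The receptors were found as the features IGFR1 and M6P/IGF2R, on chromosomes 18 and 8, the chromosomes that hold IGF1R and IGF2R in the RefSeq annotation of the assembly ARS-UI_Ramb_v3.0. IGFR1 lay between SYNM and PGPEP1L, as IGF1R does in that annotation. The rule for the 10 members used their names only.

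IGF1 and IGF2 are peptide hormones that promote cell growth, division and survival. Both signal mainly through the tyrosine kinase IGF1R, whereas IGF2R, which is also the cation-independent mannose 6-phosphate receptor, carries IGF2 and lysosomal enzymes to the lysosome. The binding proteins hold the IGFs in extracellular fluid and can limit or prolong their access to the receptor, and in the mammary gland IGFBP5 is best known for its rise in the involuting gland.

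Mammary parenchyma of Romney ewes, primiparous and 2 years of age, was taken by needle biopsy in late pregnancy (day 135 of gestation) and again in lactation (day 15 post partum). RNA of several ewes was pooled for each of 9 late pregnancy and 6 lactation libraries. By the series' design text each late pregnancy pool held 3 ewes and each lactation pool 2, while the methods give 3 throughout. The ewes' own dams had been fed ad libitum (HM), at maintenance (MM) or below maintenance (LM) in early gestation, and at maintenance afterwards in all 3 groups, and each group held 3 late pregnancy and 2 lactation pools. All ewes themselves were kept under the same pastoral management. The labels do not say which ewes gave both biopsies, so a late pregnancy pool and a lactation pool may share animals.

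Libraries held 7597938 to 19823166 reads on genes in late pregnancy and 10352962 to 25679416 in lactation. Expression is given as CPM, reads on a gene's exons per 1000000 reads after the libraries were scaled by the TMM method, because 7 milk protein genes took 13.7 to 23.4% of the reads used in late pregnancy and 71.3 to 75.8% in lactation. Markers of mammary epithelium were abundant in the biopsies, and the 8 luminal ones summed to 1492 to 1832 CPM in late pregnancy and 2383 to 2622 CPM in lactation. Most of each sum came from KRT19 (mean 622 and 947 CPM) and ELF5 (mean 629 and 1099 CPM). No member's reads were shared with another place in the genome: all of them (100%) were uniquely placed. A gene was called when its Benjamini-Hochberg adjusted p from the quasi-likelihood test of edgeR was under 0.05.

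The first comparison asked how the members differed between lactation and late pregnancy. IGFBP2 showed the largest difference with a narrow error, 3.50-fold lower in lactation. IGF1, IGFBP4, IGFBP3 and IGFBP7 were also lower, IGF2R, IGF1R and IGFBP6 were higher, and IGF2 and IGFBP5 were not called. Thus 5 of the 10 members were called lower, where 35.2% of the 13345 genes tested were, and 3 were called higher, where 33.1% of the genes tested were. Fitted changes past 2-fold were seen for 2 members, both lower (13.0% of all tested genes were called lower by as much). Separation of the 2 states, with no library of one inside the range of the other, was seen for 1 member that was lower, IGFBP2, and 1 that was higher, IGF2R, and the same held for 20.0% of all tested genes in the lower direction and 20.2% in the higher. The median change on the log2 scale was −0.33 over the 10 members, −0.33 over the 6 binding proteins and −0.03 over all genes tested. Lactation HM pool 1, which stood apart in its share of intron reads as given with those reads, changed neither count when left out (5 lower and 3 higher), with IGFBP2 at −1.68. The members' counts were not tested against those of the whole table.

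**Figure D1:**
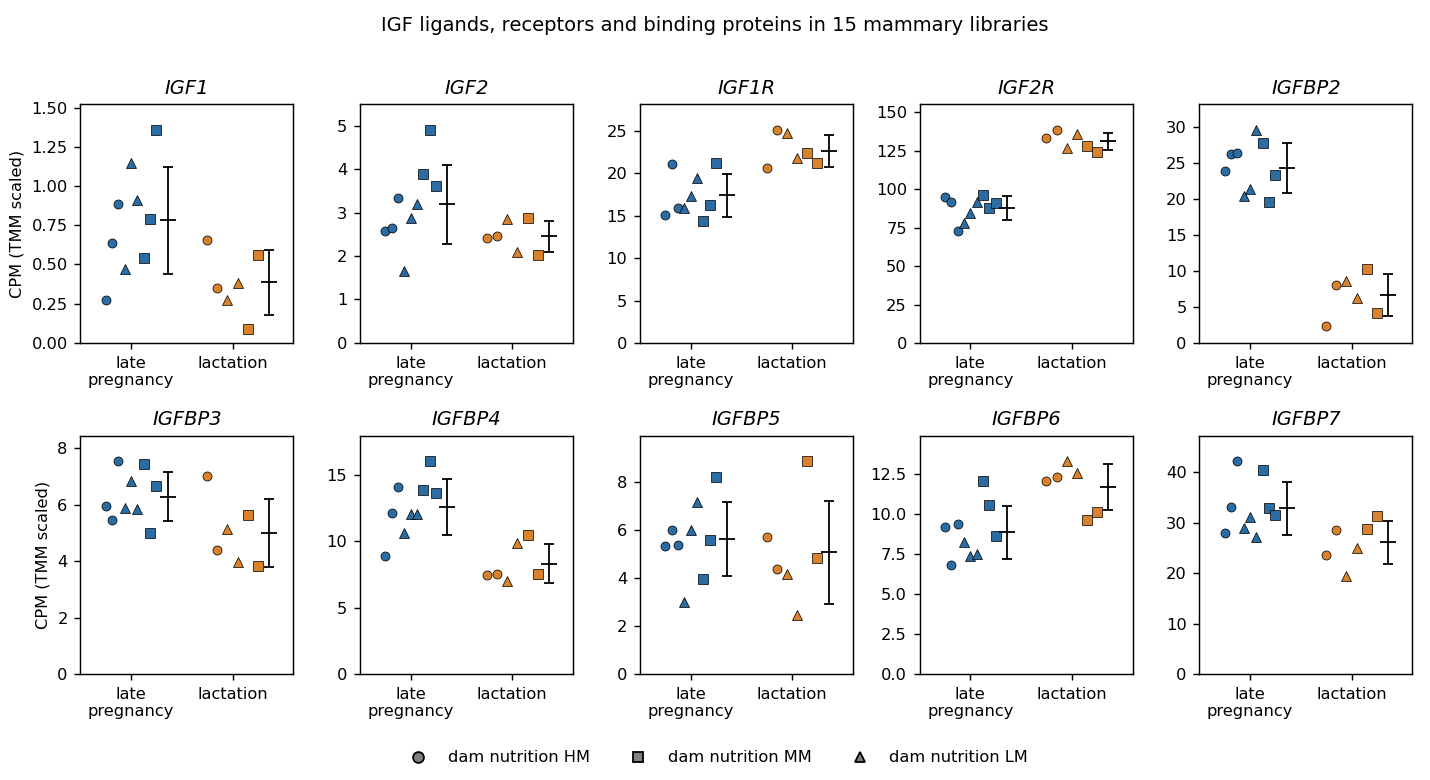
Expression of each member in CPM after TMM scaling (vertical axes from 0, linear), with 1 point for each of the 9 late pregnancy and 6 lactation libraries, marked by dam nutrition, and the mean with its SD as the black bar. IGFBP2 lay between 19.5 and 29.6 CPM in late pregnancy and between 2.42 and 10.3 CPM in lactation, IGF2R was the only other member without overlap, and the points of the remaining members overlapped between the states.

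Both ligands were at the low end of the members. IGF1, on chromosome 3 from 171254377 to 171327850, was counted with 6 to 34 reads in the late pregnancy libraries (median 13) and with 1 to 5 reads in the lactation libraries (median 2). In CPM it ran from 0.276 through a median of 0.792 to 1.36 in late pregnancy, and from 0.0870 through 0.366 to 0.659 in lactation. The ranges overlapped, and in lactation 5 of the 6 libraries held no more than 3 reads. The fitted change was −1.12 on the log2 scale (SE 0.446, edgeR adjusted p = 0.0321). That call rested on single libraries: the adjusted p from edgeR was 0.0505 without lactation HM pool 2, 0.0659 without lactation LM pool 1, 0.124 without lactation MM pool 1 and 0.0537 without late pregnancy LM pool 2. On quantile-normalized RPKM (plus 1) the change in IGF1 was −0.37 with an adjusted p of 0.0613 from limma.

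IGF2, on chromosome 21 from 48655312 to 48680421, was the more abundant ligand. Its CPM ran from 1.66 through a median of 3.19 to 4.90 in late pregnancy and from 2.03 through 2.44 to 2.87 in lactation, so that every lactation value lay inside the late pregnancy range. The change of −0.36 (SE 0.214) was not called (edgeR adjusted p = 0.144), nor in 14 of the 15 fits that left out 1 library. Without late pregnancy LM pool 1, the lowest library, it was −0.45 with an adjusted p of 0.0301 from edgeR. Leaving out the lowest late pregnancy value widens the difference by construction, so this p is no support for a change. The ratio of IGF2 to IGF1 in RPKM, reads per kilobase of exon and per 1000000 reads on genes, was on average 2.10 in late pregnancy and 3.64 in lactation. With so few IGF1 reads the ratio in single lactation libraries spread widely, and the states did not differ by an exact two-sided permutation test over the 15 libraries (difference of 0.79 in log2, adjusted p = 0.174 over the 6 ratios compared).

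Both receptors were higher in lactation with TMM scaling, and lower with library size alone. IGF2R, on chromosome 8 from 82785646 to 82958439, was the member with the most reads, 984 to 2498 per library in late pregnancy and 607 to 1475 in lactation. Its level was 87.6 ± 7.87 CPM (SD, n = 9) in late pregnancy, from 72.7 through a median of 91.1 to 96.1, and 131 ± 5.54 CPM (SD, n = 6) in lactation, from 124 through 131 to 139. Every lactation library thus lay above every late pregnancy library, and IGF2R rose by 0.58 on the log2 scale (SE 0.0598, edgeR adjusted p = 4.15e-08).

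IGF1R, on chromosome 18 from 6907389 to 7217788, was measured at 17.4 ± 2.56 CPM (SD, n = 9) in late pregnancy and 22.7 ± 1.88 CPM (SD, n = 6) in lactation. The late pregnancy libraries ran from 14.4 through a median of 16.2 to 21.2 and the lactation libraries from 20.6 through 22.2 to 25.1, with 2 late pregnancy libraries (HM pool 2 and MM pool 3) reaching the lactation range. The change was 0.39 (SE 0.0920, edgeR adjusted p = 9.00e-04). Within libraries the ratio of IGF1R to IGF2R in RPKM was on average 0.320 in late pregnancy and 0.280 in lactation, and the difference of −0.20 in log2 did not pass the exact two-sided permutation test (adjusted p = 0.152). By the same exact test its unadjusted p was 0.0761 with all libraries and ran from 0.0180 to 0.152 when 1 library was left out. The p of that test was 0.0333 without late pregnancy HM pool 1 and 0.0180 without late pregnancy MM pool 1. These 2 libraries had the lowest late pregnancy values of this same ratio, so leaving out either widens the difference. Both p are therefore no support for a difference.

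IGFBP2 binds IGF2 with preference and, through an RGD sequence, can also bind integrins. The gene lies on chromosome 2 from 217583379 to 217637005. Its libraries ran from 19.5 through a median of 23.9 to 29.6 CPM in late pregnancy and from 2.42 through 7.18 to 10.3 CPM in lactation. Behind these values stood 287 to 778 reads per late pregnancy library and 11 to 118 per lactation library. All lactation libraries were low, the lowest being HM pool 1 and the highest MM pool 1, and none reached the late pregnancy range. IGFBP2 fell by 1.81 on the log2 scale (SE 0.183, edgeR adjusted p = 3.48e-08), a change exceeded on the lower side by 4.68% of the genes tested. Spread within a state was wider in lactation (coefficient of variation 44.2%) than in late pregnancy (14.3%), which was not tested.

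IGFBP5, which binds both IGFs and the extracellular matrix, is the next gene on the chromosome (217650740 to 217669195), with 13734 bases between it and IGFBP2. It did not share the change: its libraries ran from 3.04 through a median of 5.59 to 8.21 CPM in late pregnancy and from 2.47 through 4.62 to 8.87 CPM in lactation. Ranges nearly coincided, and the difference of −0.08 (SE 0.232) was not called (edgeR adjusted p = 0.782). In the lanes named in the column headers it was 0.27 among the libraries of lane 7 and −0.64 among those of lane 8, although every library was run on both lanes. All LM pools were named under lane 8, so this split is partly mixed with dam nutrition. MM pools were named under both lanes. Among them IGFBP5 was 3.97 and 5.59 CPM in late pregnancy and 8.87 CPM in lactation under lane 7. Under lane 8 it was 8.21 CPM in late pregnancy and 4.84 CPM in lactation. The cause of the split was not tested. The ratio of IGFBP5 to IGFBP2 in RPKM was on average 0.281 in late pregnancy and 0.988 in lactation. It was higher in every lactation library than in any late pregnancy library, by 1.81 in log2 (exact two-sided permutation test, p = 0.0001998, which is the smallest that this test can give for 9 against 6 libraries, adjusted p = 5.99e-04). RPL37A, a ribosomal protein gene and the nearest gene on the other side of IGFBP2, was lower by 0.64 in log2.

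IGFBP4 is a binding protein that is mainly inhibitory and is cut by the protease PAPPA. It lies on chromosome 11 from 40250168 to 40260382. The late pregnancy libraries ran from 8.89 through a median of 12.1 to 16.0 CPM and the lactation libraries from 7.05 through 7.55 to 10.4 CPM. Only late pregnancy HM pool 1, the lowest of its state, fell within the lactation range. IGFBP4 fell by 0.58 on the log2 scale (SE 0.130, edgeR adjusted p = 6.00e-04), and it was called in each fit that left out 1 library.

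IGFBP7 binds IGFs weakly, also binds insulin and activin, and is abundant in blood vessels. It lies on chromosome 6 from 72423581 to 72437466. Its libraries ran from 27.2 through a median of 31.6 to 42.2 CPM in late pregnancy and from 19.5 through 26.9 to 31.3 CPM in lactation. The states overlapped over several libraries, and IGFBP7 fell by 0.32 (SE 0.111, edgeR adjusted p = 0.0169), which was not called without lactation LM pool 1, the lowest library (−0.24, adjusted p = 0.0589).

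IGFBP3, the main carrier of IGFs in serum, lies on chromosome 4 from 76176917 to 76178865. It ran from 4.997 through a median of 5.94 to 7.53 CPM in late pregnancy and from 3.83 through 4.77 to 7.03 CPM in lactation, with lactation HM pool 1 inside the upper part of the late pregnancy range. The change of −0.34 (SE 0.136) passed narrowly (edgeR adjusted p = 0.0323). Leaving out 1 library ended the call for 6 of the 15, with adjusted p from edgeR of 0.0679, 0.0770 and 0.106 without lactation HM pool 2, LM pool 2 and MM pool 2, and of 0.0515, 0.0502 and 0.0559 without late pregnancy HM pool 3, LM pool 2 and MM pool 1. By the lane in the column headers the change was −0.07 among libraries of lane 7 and −0.60 among those of lane 8. With all LM pools under lane 8, this split too is partly mixed with dam nutrition. Among the MM pools IGFBP3 was 7.43 and 4.997 CPM in late pregnancy and 5.65 CPM in lactation under lane 7. Under lane 8 it was 6.66 CPM in late pregnancy and 3.83 CPM in lactation, and the cause was not tested. IGFBP1, which codes for a binding protein made chiefly by liver and decidua, is the next gene, 9623 bases from IGFBP3, and no library held a read of it. A count of 0 allows up to 3 reads, or 0.101 to 0.274 CPM in the late pregnancy libraries and 0.261 to 0.659 CPM in those of lactation, for counting error only.

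IGFBP6, which prefers IGF2 to IGF1, was the only binding protein called higher in lactation with TMM scaling, and it too was lower with library size alone. It lies on chromosome 3 from 133213326 to 133216912. Its libraries ran from 6.85 through a median of 8.66 to 12.1 CPM in late pregnancy and from 9.65 through 12.2 to 13.3 CPM in lactation, and the 2 lowest lactation libraries were both MM. The change was 0.38 (SE 0.124, edgeR adjusted p = 0.0112). It was not called on quantile-normalized RPKM plus 1 (0.23, limma adjusted p = 0.0579).

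Direction depended on how the libraries were scaled. The median change of all genes was −0.18 with upper quartile scaling, −0.24 with library size less the 7 milk protein genes, and −1.93 with library size alone, beside −0.03 with TMM. Accordingly 51.6% of called genes were lower with TMM, 63.7% with upper quartile scaling, 68.1% without the milk protein genes and 97.3% with library size alone. Under library size alone all 10 members were called lower and IGF1R, IGF2R and IGFBP6 changed direction (−1.52, −1.32 and −1.53). Each change was also taken relative to the median gene of the same scaling. With TMM and with library size alone, IGF2R then stood at 0.61 and 0.61 and IGF1R at 0.42 and 0.41. IGFBP6 stood at 0.41 and 0.41, and IGFBP2 at −1.78 and −1.78. Scaling shifts all genes by nearly the same amount, so these pairs match by construction. They do not show which direction is right. Without the milk protein genes IGF2R was the single member called higher, since IGF1R (0.18, edgeR adjusted p = 0.0984) and IGFBP6 (0.17, edgeR adjusted p = 0.231) were not called. IGFBP6 was not called under upper quartile scaling either (0.23, edgeR adjusted p = 0.108). IGF2 was called lower without the milk protein genes (−0.57, adjusted p = 0.0265) and under upper quartile scaling (−0.51, adjusted p = 0.0422), both from edgeR.

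**Figure D2:**
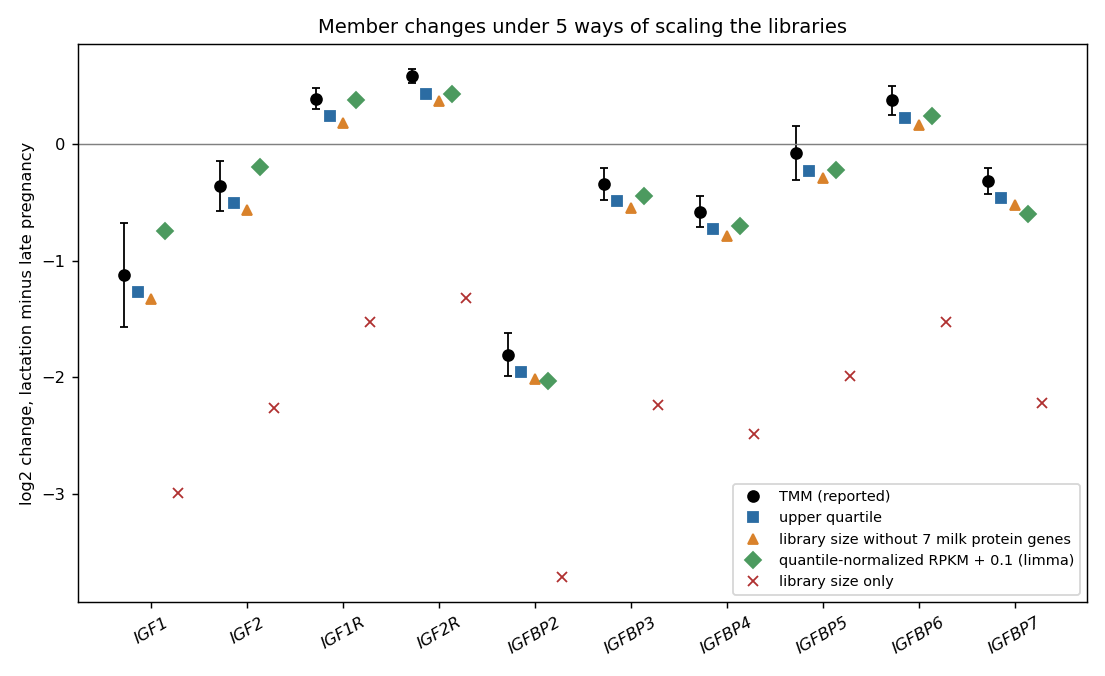
Change of each member between lactation and late pregnancy on the log2 scale, under TMM (black, with SE) and 4 other scalings shown by the other symbols. IGFBP2 was the lowest member under each of the 5, from −1.81 with TMM to −3.71 with library size alone, and IGF1R, IGF2R and IGFBP6 lay above 0 in all scalings but library size alone.

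Levels of different genes were compared per kilobase of exon and within a state, since RPKM is relative to all reads on genes and the milk protein genes lower it for all others in lactation. In late pregnancy the mean RPKM ran from IGFBP7 (126.5 ± 19.9, SD, n = 9) through IGFBP2 (32.6 ± 4.62), IGFBP4 (23.5 ± 4.57), IGFBP6 (20.2 ± 3.87), IGFBP3 (18.9 ± 2.73), IGF2R (17.3 ± 1.91), IGFBP5 (9.50 ± 2.86), IGF1R (5.59 ± 0.983) and IGF2 (3.82 ± 1.20) to IGF1 (1.94 ± 0.909). Only IGFBP7 was separated from its neighbour in that order without overlap of the libraries. In lactation the order was IGFBP7 (29.2 ± 4.86, SD, n = 6), IGFBP6 (7.69 ± 0.862), IGF2R (7.52 ± 0.454), IGFBP4 (4.51 ± 0.922), IGFBP3 (4.39 ± 1.23), IGFBP2 (2.58 ± 1.19), IGFBP5 (2.50 ± 1.17), IGF1R (2.10 ± 0.153), IGF2 (0.849 ± 0.145) and IGF1 (0.273 ± 0.149). Here IGFBP7 from IGFBP6, IGF2R from IGFBP4, IGF1R from IGF2 and IGF2 from IGF1 were separated, and the other neighbours overlapped. IGFBP2 moved from the second place to the sixth. The annotated exons of the members were short, 376 bases for IGFBP7 against 7332 for IGF2R, so levels per length depend on how complete these gene models are.

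Among the 6 binding proteins IGFBP7 gave more than any other in every library. It made up 54.6 ± 2.79% of their summed RPKM in late pregnancy (SD, n = 9) and 57.2 ± 5.55% in lactation (SD, n = 6). The share of IGFBP2 was 14.2 ± 2.12% in late pregnancy and 5.07 ± 2.20% in lactation, and the share of IGFBP6 was 8.74 ± 1.30% and 15.4 ± 3.15%. Neither share overlapped between the states: IGFBP2 was at least 11.3% in late pregnancy and at most 7.53% in lactation, and IGFBP6 at most 10.4% and at least 11.1%. IGFBP3 (8.20 and 8.67%), IGFBP4 (10.1 and 8.85%) and IGFBP5 (4.13 and 4.79%) held similar mean shares in the 2 states, and these shares were not tested.

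Ratios within a library need no scaling between libraries, and 6 were compared. IGFBP2 relative to IGFBP7 was on average 0.258 in late pregnancy and 0.0804 in lactation, lower in every lactation library, by 1.68 in log2 (exact two-sided permutation test, p = 0.0001998, adjusted p = 5.99e-04). The ratio of IGFBP3 to IGFBP5 was 2.06 and 1.86 (difference −0.15 in log2, adjusted p = 0.564) and that of IGFBP4 to IGFBP5 was 2.54 and 1.94 (difference −0.39, adjusted p = 0.207), both by the exact permutation test. The last ratio had its highest lactation value in LM pool 2, and without that library the difference was −0.63. The unadjusted p of the exact permutation test was then 0.0135. That library was picked for its value of this same ratio, so this p is no support for a difference.

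**Figure D3:**
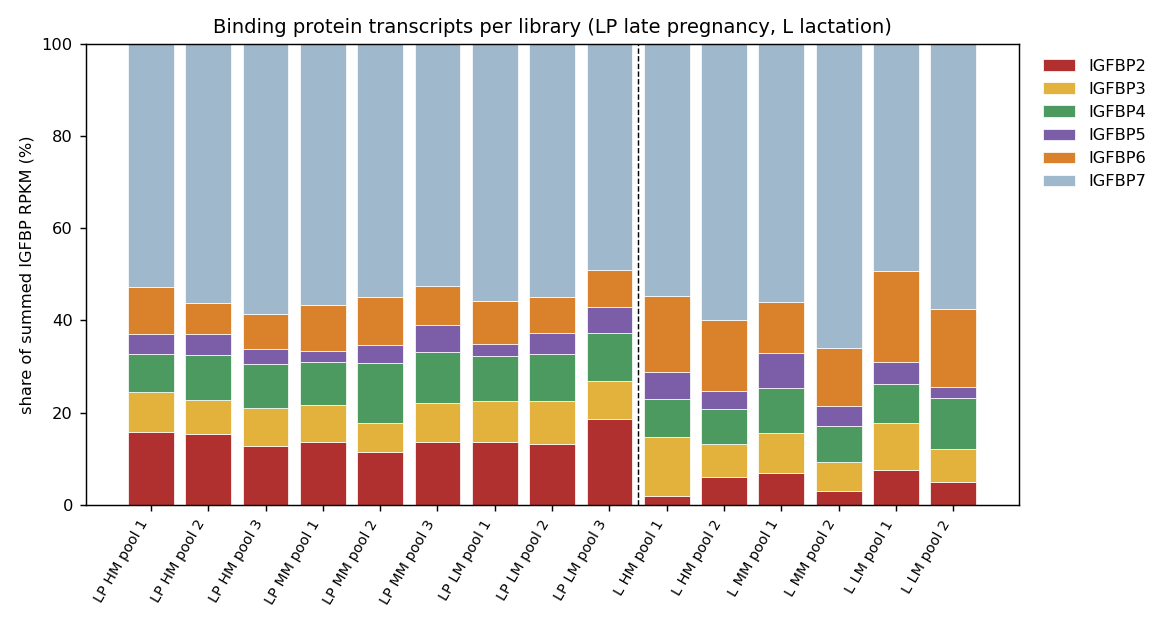
Share of each binding protein in the summed RPKM of the 6 (%), 1 bar for each library, late pregnancy left of the dashed line and lactation right of it. The share of IGFBP2 was 11.3 to 18.6% left of the line and 1.95 to 7.53% right of it, that of IGFBP6 ran from 6.84 to 10.4% and from 11.1 to 19.8%, and IGFBP7 held 49.1 to 65.9% across all libraries.

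Reads on introns, the reads on a whole gene less those on its exons, made up 13.2 to 15.0% of the reads of late pregnancy libraries over 9801 genes, 5.02 to 5.79% in 5 lactation libraries and 12.4% in lactation HM pool 1, which stood apart from its state. These sums weigh each gene by its reads, and over the same genes the median difference in share was 0.35 percentage points, higher in lactation. Intron reads were tested in the same way for the 6 members that had enough of them. They include reads from exons that the 1 annotated transcript of each gene lacks. Of the 6, 3 were called lower in lactation (IGF2, IGFBP4 and IGFBP7), where 29.0% of 10344 genes were, and 1 was called higher (IGF1R), where 29.0% of genes were. IGF2 intron reads numbered 17 to 43 in the late pregnancy libraries (median 35) and 2 to 10 in the lactation libraries (median 4), and they fell by 1.18 in log2 (SE 0.252, edgeR adjusted p = 3.18e-04), whereas the exon reads of IGF2 were not called. IGFBP4 fell by 1.03 (edgeR adjusted p = 4.59e-04) and IGFBP7 by 0.72 (edgeR adjusted p = 0.0252) on introns. The call of IGFBP7 was lost without lactation LM pool 1 (edgeR adjusted p = 0.0672) or LM pool 2 (edgeR adjusted p = 0.0641). IGF1R rose by 0.41 on introns (edgeR adjusted p = 0.00567), close to its 0.39 on exons. The intron reads of IGF2R differed by 0.05 (edgeR adjusted p = 0.648) and those of IGFBP6 by −0.40 (edgeR adjusted p = 0.130), whereas both genes rose on exons. Without lactation HM pool 1 3 members were again called lower and 1 higher, with changes of −1.16 for IGF2 and 0.07 for IGF2R. The median intron change was −0.56 over the 6 members and −0.01 over all genes tested.

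The share of a gene's own reads that lay on introns compares both classes of read within a library, and this test was chosen after the intron changes were seen. For IGF2R the share ran from 23.1 through a median of 26.5 to 32.0% in late pregnancy and, in lactation, from 18.8 through 21.1 to 23.6%. The difference of −5.76 percentage points came with 1 lactation library inside the late pregnancy range and passed the exact two-sided permutation test (adjusted p = 0.00719 over 6 genes). For IGF2 the share was 32.6 ± 4.93% in late pregnancy and 21.6 ± 8.44% in lactation, and for IGFBP6 14.2 ± 3.65% and 9.56 ± 1.96% (SD, n = 9 and n = 6). Both differences passed the exact permutation test, with an adjusted p of 0.0258 for IGF2 and 0.0348 for IGFBP6, but rested on single libraries. For IGF2 the adjusted p of the exact test was 0.0607, 0.0644 and 0.0569 without lactation HM pool 2, LM pool 1 and MM pool 1. For IGFBP6 leaving out any of 8 of the 15 libraries ended the call, with adjusted p of the exact test of 0.0607, 0.0729, 0.0649 and 0.0510 without lactation HM pool 2, LM pool 1, MM pool 1 and MM pool 2, and of 0.0573, 0.0533, 0.0533 and 0.0540 without late pregnancy HM pool 1 and LM pools 1, 2 and 3. The lower share of IGF2R passed without any 1 library, with an adjusted p of at most 0.0240, and without lactation HM pool 1 the differences were −5.61 points for IGF2R, −10.9 for IGF2 and −4.94 for IGFBP6, all past the exact test. IGF1R (34.7 and 35.7%), IGFBP4 (17.0 and 14.7%) and IGFBP7 (3.45 and 2.72%) did not pass, with adjusted p of 0.646, 0.402 and 0.313 by the same exact test. Over 9801 genes tested on both exons and introns the median difference was 0.35 percentage points, and 8.48% of these genes had a lower difference than IGF2R, 2.47% a lower one than IGF2 and 11.8% a lower one than IGFBP6.

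**Figure D4:**
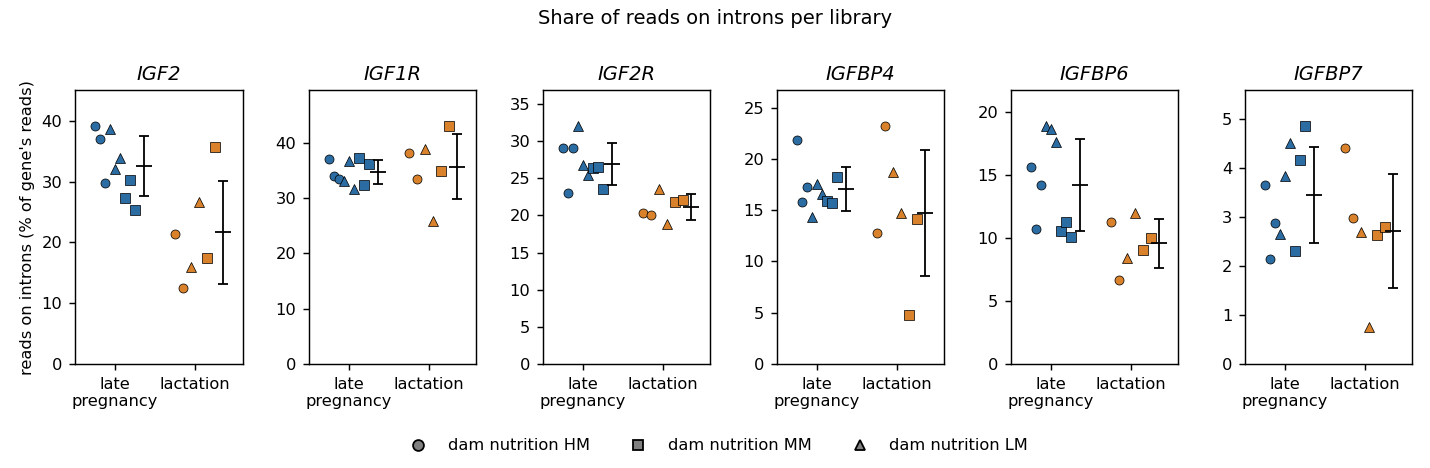
Reads on introns as a share of a gene's reads (%, axes from 0) for the 6 members tested, with 1 point per library marked by dam nutrition and the mean with its SD as the black bar. IGF2R ran from 18.8 to 23.6% in lactation against 23.1 to 32.0% in late pregnancy, while the shares of IGF1R were alike on average at 34.7 and 35.7%.

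The second question was whether the feeding of the ewes' dams left a difference among the members in late pregnancy. No member was called among the 9 late pregnancy libraries, and 0 of 13747 genes were (0.0%) by edgeR, with 571 genes at an unadjusted p under 0.05 (4.15%). DESeq2 called 20 genes, no member among them. In counts simulated for HM against LM with the same spread for every gene, edgeR called 8.96% of genes changed by 0.5 in log2. Of those changed by 1 it called 82.1%, so small differences could be missed at 3 pools a group. The unadjusted p was under 0.05 for IGF2 (0.0308) and IGFBP6 (0.0339), both with an adjusted p of 1.00 from edgeR. IGF2 was 2.85 ± 0.410 CPM in HM, 4.13 ± 0.675 in MM and 2.57 ± 0.806 in LM (SD, n = 3 each), and all MM pools lay above all others. IGFBP6 was 8.48 ± 1.42, 10.4 ± 1.71 and 7.69 ± 0.475 CPM in the same groups, with overlap between MM and HM. IGFBP4 also had its highest mean in MM (14.5 ± 1.29 CPM, against 11.7 ± 2.63 in HM and 11.5 ± 0.823 in LM), with an unadjusted p of 0.0752 from edgeR. The highest late pregnancy mean was in MM for every member but IGF1R and IGFBP2, so it was not particular to IGF2, IGFBP4 and IGFBP6.

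Whether the change between states depended on dam nutrition was tested over all 15 libraries. No member was called and 0 of 13345 genes were (0.0%) by edgeR, with 876 genes at an unadjusted p under 0.05 (6.56%). IGFBP6 had the lowest p of the members (0.00749, edgeR adjusted p = 0.735). Its difference between lactation and late pregnancy was 0.52 in HM and 0.75 in LM but −0.07 in MM, on the log2 scale of the group means. IGFBP2 was lower in lactation in each group, by −2.28 in HM, −1.71 in MM and −1.68 in LM, and IGF2R was higher in each, by 0.66, 0.46 and 0.63.

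Cell type markers were compared with TMM scaling as well, and their calls stand beside 35.2% of all genes called lower and 33.1% called higher. Summed fibroblast markers, all 6 of those found, were 374 to 656 CPM in late pregnancy and 240 to 393 in lactation, with 5 of 6 called lower. The 5 endothelial markers were 163 to 217 and 99.1 to 139 CPM, with 4 called lower, and the 7 macrophage markers 160 to 208 and 78.9 to 109 CPM, with 5 called lower. T cell markers were 42.0 to 66.2 and 13.6 to 20.5 CPM, with 6 of 6 called lower. Of the 8 luminal markers 4 were called higher and 1 lower, and of the 7 myoepithelial markers, which summed to 707 to 790 and 654 to 954 CPM, 3 were called higher and 2 lower. With library size alone all 8 luminal and all 7 myoepithelial markers were called lower. Adipocyte markers summed to 256 to 477 and 1977 to 2333 CPM, with 2 of 5 tested called higher, LPL and CIDEA, while ADIPOQ, which defines adipocytes, was at 4.12 to 20.6 and 4.75 to 13.8 CPM. The 5 members called lower, IGFBP2 among them, were lower in the same libraries as the markers of fibroblasts, endothelium, macrophages and T cells, and the part of these cells in the result was not tested. In bulk tissue fewer cells of a type and less RNA per cell cannot be told apart.

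For each member the genes with the most similar pattern were found by Pearson's r of log2(CPM + 1) over the 15 libraries, after the mean of each state was taken off. Over so few libraries, which share depth and scaling, this is a description. IGFBP4 was most like BGN (r = 0.91), which codes for the matrix proteoglycan biglycan, and FN1, fibronectin, was also among its 3 nearest (r = 0.85). IGF2 was most like TTC7A (r = 0.92), IGFBP5 most like ANO1 (r = 0.89), IGFBP2 most like WDR62 (r = 0.87), and IGFBP3 most like PLEK2 (r = 0.87). The nearest gene was LOC101121157 for IGFBP6 (r = 0.84), FNIP2 for IGF2R (r = 0.83), ABCB10 for IGF1R (r = 0.82), WWP1 for IGF1 (r = 0.82) and COL18A1, a basement membrane collagen, for IGFBP7 (r = 0.79). Among the members themselves the highest r was 0.61, between IGF2 and IGFBP4, and IGFBP4 and IGFBP7 had an r of 0.51.

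Other genes of the IGF axis, 44 by a list of proteases, adaptors, kinases and growth hormone signalling genes, were found for 41 symbols, of which 32 were tested. PAPPA, the IGFBP4 protease, was not analysed here. With TMM scaling 10 were called lower in lactation and 15 higher, and 7 were not called, where 35.2 and 33.1% of all genes tested were called lower and higher. Their median change was 0.09, beside −0.03 for all genes. With library size alone 28 of the 32 were called lower, and only ADAMTS1 (0.78) and IRS1 (0.18) were higher, with a median of −1.82 beside −1.93 for all genes. STC1, stanniocalcin, an inhibitor of the PAPPA proteases, was 2.57 ± 0.572 CPM in late pregnancy and 9.28 ± 2.50 CPM in lactation (SD, n = 9 and n = 6), without overlap, and rose by 1.90 in log2. ADAMTS1, a metalloprotease, rose by 2.68, from 10.7 ± 1.25 to 68.5 ± 12.9 CPM. GRB14, an adaptor that inhibits the insulin receptor, fell by 4.01, and its lactation libraries held at most 5 reads against up to 158 in late pregnancy. LRP2, the endocytic receptor megalin, fell by 5.56, from 308.7 ± 44.9 to 6.30 ± 1.33 CPM. The related genes IRS1, an adaptor of both the insulin and IGF receptors (2.08), INSR, the insulin receptor (0.47), GHR, the growth hormone receptor (1.35), and the cytokine signalling inhibitors CISH (1.74) and SOCS3 (1.40) were called higher with TMM scaling. With library size alone INSR (−1.44), GHR (−0.56), SOCS3 (−0.50) and CISH (−0.17) changed direction and STC1 was at −0.01. The highest adjusted p from edgeR among these 9 genes was 3.09e-04, for SOCS3, whose libraries overlapped between the states.

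**Figure D5:**
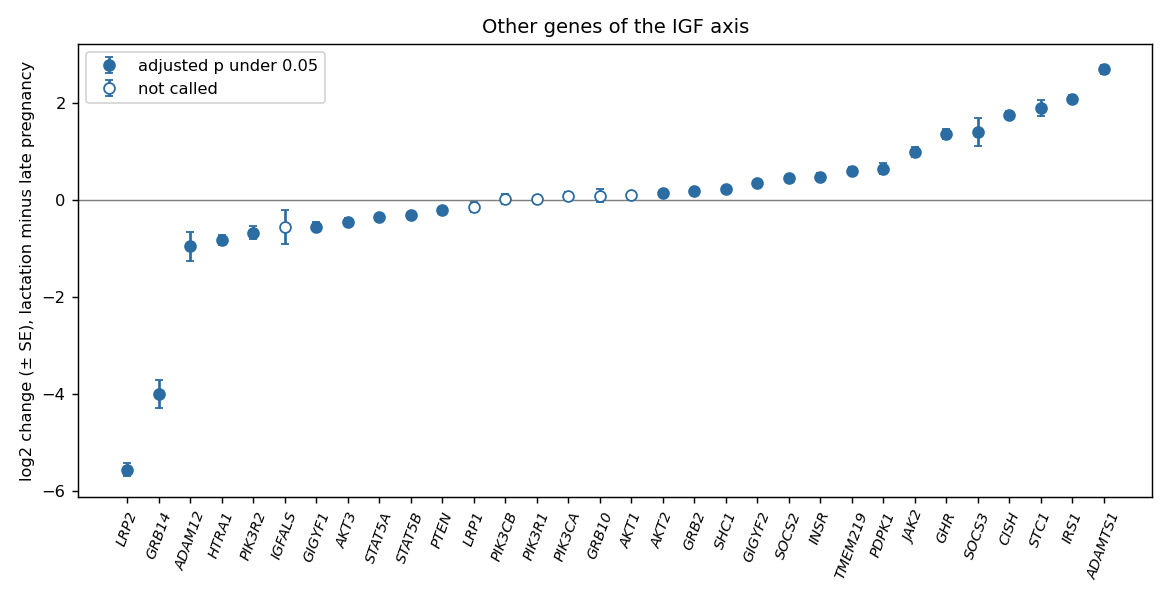
Change of the 32 other IGF axis genes tested between lactation and late pregnancy on the log2 scale with TMM scaling (points, with SE), filled where the adjusted p was under 0.05. Values ran from −5.56 for LRP2 and −4.01 for GRB14 to 2.68 for ADAMTS1, and most of the genes lay within 1 of 0.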

How the data were processed

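RNA-seq libraries of 15 pools were grouped by state and dam nutrition from the labels. The authors sequenced them on an Illumina Hi-Seq 2000 and mapped reads in CLC Genomics Workbench. Their methods give version 3.2 of the sheep genome and the processing notes Oar 3.1, so coordinates are those of the deposited table, of either version. The deposited counts are reads on exons or whole genes, not normalized. The deposited RPKM are per kilobase of exon and 1000000 reads on genes, and a second set of RPKM was quantile-normalized by the authors. Exon lengths are as deposited. Columns of the authors' own comparison (fold changes and p-values) were not used.

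Exon counts (whole-gene counts for the 5583 features without a transcript) entered edgeR 4.0.16 (R 4.3.3). The steps were filterByExpr by state, TMM, quasi-likelihood F-tests and Benjamini-Hochberg adjustment over all tested genes. The fit was tried on simulated counts in which 13145 of 13345 genes did not change. No shift in the milk protein share was built in, so TMM was not tested under the shift seen here. No covariate was used. Nothing in the labels says whether pools came from separate ewes throughout, so p-values measure the spread between libraries. Ratios of RPKM were compared by exact permutation tests (SciPy 1.17.1). Counts within groups differed by more than sampling noise in every pair, so no library was treated as a duplicate. Alternatives were DESeq2 1.42.0, limma 3.58.1, other scalings, filters, covariates and each library left out.

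Named genes were all members, other axis genes called with a log2 change above 1 in size, a few fixed names and the genes most similar to each member. The members and lists were chosen with earlier results of these data known. Intervals and floors cover counting error only.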

Additional observations from a re-analysis of the deposited data

Results flagged for a closer look

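One value stood apart. Among the ratios and levels of the members in 32 groups of libraries examined, the log2 ratio of IGFBP4 to IGFBP5 in lactation LM pool 2 was 2.15, and its gap to the nearest lactation library was 0.690 of the range of the 6 lactation libraries, above Dixon's limit of 0.625. That library had the lowest IGFBP5 of all (2.47 CPM, 13 reads) and 9.89 CPM of IGFBP4. By chance about 1 in 20 such groups passes this limit.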

How the results depend on the processing

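The changes in IGFBP2, IGFBP4 and IGF2R were called under every alternative run, IGF2R reversed under library size alone. With library size alone 10 members were called lower and 0 higher, and IGF1R (−1.52), IGF2R (−1.32) and IGFBP6 (−1.53) reversed; on introns 5 were called lower and 0 higher, with IGF1R (−0.21) and IGF2R (−0.55) reversed. Without the milk protein genes 1 member was called higher. Leaving out 1 library left 3 to 6 members called lower. IGFBP5 ranged from −0.37 to 0.0446 in these fits, and reversed without lactation LM pool 2 (0.0446) and without late pregnancy MM pool 3 (0.00108). The labels do not say whether pool numbers pair the samples. Correlations between same-numbered pools of the 2 states were −0.0452 to 0.120, within the −0.173 to 0.130 of the other pairs. Such correlations cannot decide whether pools share ewes. In the fit with dam nutrition and pool number as a replicate block 8464 genes were called against 9122. There 3 members were called lower and 2 higher. IGF1 (edgeR adjusted p 0.107), IGFBP3 (0.0780) and IGFBP6 (0.0588) lost their calls, and the IGFBP5 change reversed (0.0737). For dam nutrition DESeq2 called 20 genes against 0, and leaving out 1 library gave 0 to 1. The exact test of the IGF1R to IGF2R ratio gave −0.25 to −0.16 and that of IGFBP4 to IGFBP5 −0.63 to −0.28 when 1 library was left out. The intron share of IGF1R ran from −0.459 to 2.99 points when 1 library was left out, reversed without lactation MM pool 2 (−0.459). The cause of these changes was not tested. Depth limits IGF1 most, with 15 reads over the 6 lactation libraries.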
